A study of Mus musculus with 12 samples.

Results

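The comparison described here sets 3 livers of female mice that had received testosterone against 3 that had received the carrier oil, all taken after the injections had stopped. These 6 arrays, each from its own mouse, were picked by their titles out of the 12 in the series, and the remaining 6 come from livers taken when treatment ended. The question, as far as the labels and the series title give it, is how much of the hormone's effect on hepatic gene expression lasts once the hormone is gone, and whether cells of the organ take on traits of the exocrine pancreas. All mice were female C57BL/6, a common inbred strain. They had been injected under the skin 2 times per week for 3 weeks, the treated mice with 0.9 mg testosterone dissolved in 100 µl sesame oil and the vehicle mice with the oil alone. The titles put the withdrawal interval at 12 weeks and the series' design text puts it at 3 weeks, so its length is uncertain. The treatment labels of the testosterone mice call the interval one of vehicle withdrawal. No age is given, and the design text states that the mice are individual biological replicates, numbered 1 to 3 in each group.

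The mouse liver expresses many genes at different levels in males and females, above all those for steroid, drug and fatty acid metabolism. The pattern follows the pituitary's release of growth hormone, which comes in pulses in males and more evenly in females and acts on hepatocytes through the kinase JAK2 and the transcription factor STAT5. Sex steroids act on this pattern largely through the pituitary, while the transcriptional repressors Bcl6, higher in males, and Cux2, higher in females, act within the liver. Values below are deposited array signals, in arbitrary linear units, with mice always given in the order 1, 2, 3. Differences are log2 of testosterone minus vehicle with the standard error of a limma fit, and a gene is called when its Benjamini-Hochberg adjusted p is under 0.05.

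The livers were liver by their markers. All 25 listed hepatocyte genes lay above the array's median in every mouse, albumin (Alb) read 4510.2 to 6052, and the summed signal of the list was 58490 to 63079 in vehicle mice and 61047 to 71235 in testosterone mice. In a bulk sample, a change in the share of a cell type and a change in RNA per cell cannot be told apart. The 2% trimmed mean of every array was 100.05 as deposited, arrays of a group correlated at 0.979 to 0.989, and the beta-actin ratio, the 3' probe set over the 5' one, was 1.62 ± 0.179 in testosterone and 1.77 ± 0.154 in vehicle mice (SD, n = 3, two-sided exact permutation p = 0.2, where 0.1 is the smallest possible).

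Before any contrast is read, 3 of the 6 livers need a remark, because they carried transcripts of other tissues. In testosterone mice 1 and 2, digestive enzyme genes of the exocrine pancreas were raised. Carboxypeptidase B1 (Cpb1) read 45.8 and 105 there, against 0.882 in testosterone mouse 3 and 0.277 to 0.811 in vehicle mice, and Cpa1 read 40.3 and 138 against 0.472 and 0.492 to 1.67. Chymotrypsinogen (Ctrb1) read 70.4, 172 and 6.04 in testosterone mice 1 to 3 and at most 7.43 in vehicle mice. The array holds 30 listed exocrine genes. Leaving aside Cela1, which every liver expressed, 19 of 29 were higher in both of these mice than on all other 10 arrays, and 12 exceeded a signal of 20 in both. Some of the 19 were low, such as Spink1 at 7.86 and 9.49. The pair was known beforehand to carry this signal and the share of all genes was not counted, so the 19 are a description.

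For these 12 the ratio of mouse 2 to mouse 1 was 1.96 to 3.43, with a median of 2.36. The summed signal of the 29 genes was 726, 1742 and 137 in testosterone mice 1, 2 and 3. It was 110 to 160 in vehicle mice and 103 to 152 at the end of treatment, so testosterone mouse 3 lay within the range of the vehicle mice. The acinar transcription factors Ptf1a (3.93, 2.65, 8.36) and Rbpjl (0.519, 0.355, 1.19) stayed low in all 3 testosterone mice, with Ptf1a highest in mouse 3. Bhlha15, which shapes secretory acinar cells, read 8.65, 13.5 and 11.6 against 7.25 to 8.48 in vehicle mice. Islet hormones were low too: Ins2 was at most 2.63, Gcg at most 4.66 and Sst at most 14.1 in these 6 livers.

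Skeletal muscle genes were raised in vehicle mouse 1 and testosterone mouse 1, that is in 1 liver of each group. Skeletal actin (Acta1) read 142, 1.44 and 2.71 in vehicle mice and 332, 5.61 and 1.61 in testosterone mice, and myoglobin (Mb) read 99.7 and 262 in the same pair. The 15 listed muscle genes summed to 590 in vehicle mouse 1 and 1194 in testosterone mouse 1, against 139 to 199 in the other 4 livers. By a rule set after these values were seen (at least 3-fold over every other array and a signal of at least 20 in both mice), the pancreatic pair shared 10 genes, all 10 on the exocrine list. The muscle pair shared 11, of which 7 were listed, and no other of the 66 pairs of arrays shared more than 1. The counts over all genes and those of the 4 gene lists described at most length are therefore also given without the 2 pancreatic mice, which leaves testosterone mouse 3 alone, and without the 2 muscle mice.

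**Figure D1:**
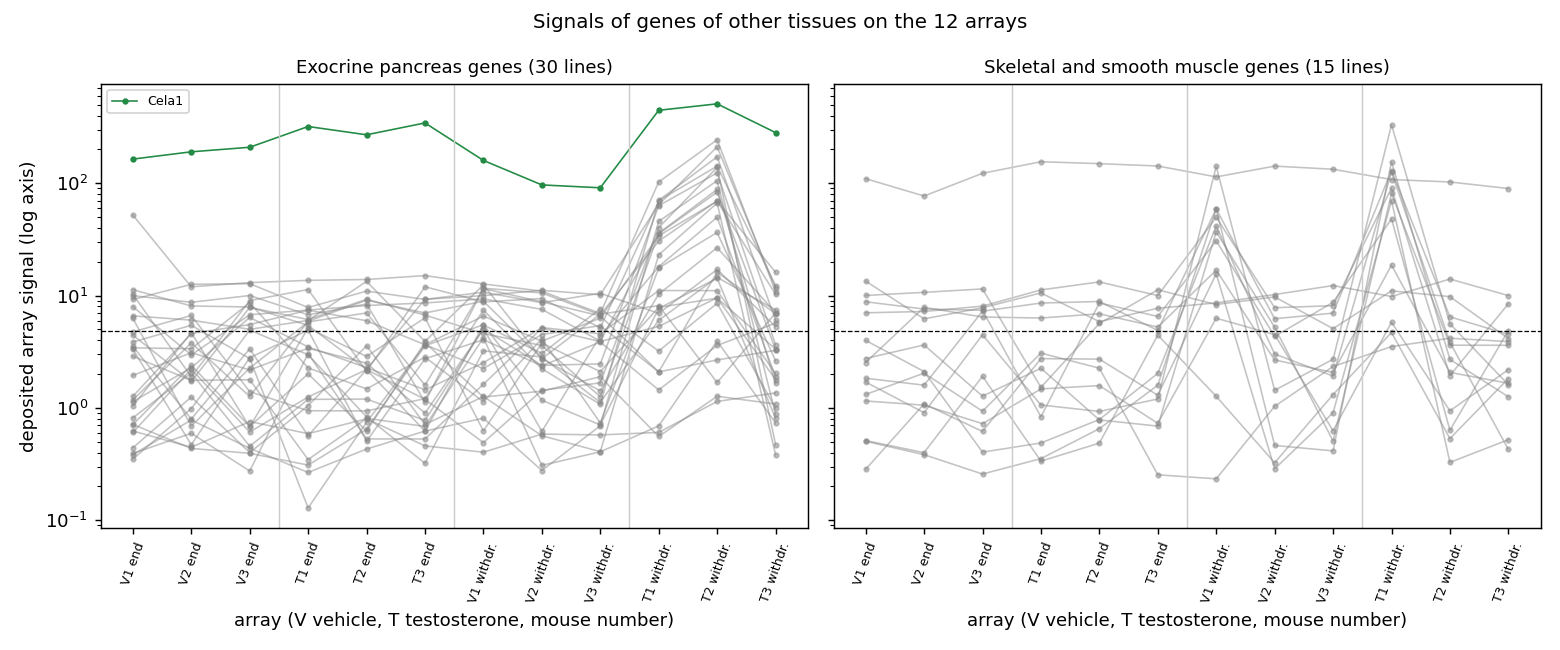
Signals on the 12 arrays (log axis) of 30 exocrine pancreas genes (left) and 15 muscle genes (right), 1 line per gene. V and T are vehicle and testosterone, and the dashed line is the floor of 4.84. Exocrine lines rise in T1 and T2 after withdrawal, muscle lines in V1 and T1 after withdrawal, and Cela1 (green) is measured on every array.

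After withdrawal, 433 of 7217 genes tested differed between testosterone and vehicle mice, which is 6.00% of them. Of these, 198 (2.74%) were higher and 235 (3.26%) lower after testosterone. At least 2-fold differences were called for 124 genes (57 higher, 67 lower) and at least 4-fold differences for 37 (15 higher, 22 lower). The median difference over all genes was -0.04, the median size among called genes was 0.69 and the smallest called was 0.24. The 2 groups of mice did not overlap for 432 of the 433. The exception was the sterol hydroxylase Cyp27a1, at 1604, 1403 and 1341 in vehicle and 1596, 1947 and 2012 in testosterone mice. Among all genes, 25.9% did not overlap. At an unadjusted limma p under 0.05, 1485 of the 7217 genes passed in either direction, a count to hold beside those of the lists below.

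The counts moved with single mice and less with the scaling. They were 112 higher and 138 lower with testosterone mouse 3 as the lone treated mouse, assumed to vary like the other groups, and 283 higher and 377 lower without the 2 muscle mice. Dropping vehicle mouse 2 gave a total of 236, dropping vehicle mouse 3 gave 256, and dropping testosterone mouse 2 or 3 gave 266 or 253. Median centring of the arrays kept the total at 432 but moved the split to 265 higher and 167 lower (61.3% higher against 45.7%), shifting the median of all genes from -0.04 to 0.05.

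Genes typical of male liver were among the largest increases. Of 22 tested members of the male-biased list, limma called 20 higher and 1 lower. Among all genes tested, 2.74% were called higher and 3.26% lower. A gene could enter the test through testosterone arrays alone, as Cyp4a12a did. Without the filter on low signals, 20 of 25 members were called higher. The list's median log2 difference was 2.11, against -0.04 for all genes. The count of higher members was 20 also without the pancreatic pair, without the muscle pair and without any single mouse. The list was drawn up with earlier results of these arrays known, so its direction is a description.

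Hsd3b5, a hydroxysteroid dehydrogenase of male liver, was essentially undetected in vehicle mice (0.889, 0.411 and 0.600) and read 561, 1089.5 and 683 in testosterone mice. This is at least 154-fold (7.27 ± 0.51, limma adjusted p = 3.93e-07). The fatty acid hydroxylase Cyp4a12a read 1.32, 1.04 and 0.289 in vehicle mice and 85.3, 371 and 611 in testosterone mice, at least 55.4-fold, with its lowest treated value in mouse 1. The testosterone hydroxylase gene Cyp2d9 rose 22.9-fold, from 85.8 ± 27.7 to 1995 ± 709 (SD, n = 3). Elovl3, which lengthens very long chain fatty acids, read 24.4, 32.6 and 36.1 against 889, 1670.2 and 1199, a 39.6-fold increase with the smallest standard error of these 4 (5.31 ± 0.26).

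Slco1a1, a transporter of organic anions and steroid conjugates, differed widely among the vehicle mice. It read 106, 1.92 and 17.5 in vehicle mice and 917, 1281 and 1052 in testosterone mice (5.69 ± 0.69), so the groups did not overlap but the size of the fold rests on how low the vehicle mice are taken to be, and no fold is given. Vehicle mice had read 194 to 319 at the end of treatment. The glucuronosyltransferase Ugt2b38 (at least 8.40-fold), the acetyltransferase-like Nat8f5 (10.2-fold), the complement inhibitor gene Susd4 (8.24-fold) and the oxysterol hydroxylase Cyp7b1 (4.61-fold) were higher in every testosterone mouse than in every vehicle mouse. Smaller increases were those of Alas2, the erythroid form of the first haem synthesis enzyme, at 2.01 ± 0.24, Egfr, the epidermal growth factor receptor, at 1.30 ± 0.19, and the glutathione transferase Gstp1 at 1.05 ± 0.07. Gstp1 read 2067 to 2115 in vehicle mice and 3972 to 4578 in testosterone mice.

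Male-biased genes included 3 of the terminal complement components, which together form the membrane attack complex. C6 read 90.4, 38.6 and 52.2 in vehicle mice and 369, 713 and 477 in testosterone mice, an 8.84-fold increase. C8a rose 3.57-fold and C8b 3.33-fold, and C9, from the acute phase list, rose 1.65-fold, with no overlap between the groups for any of them. These 4 were set side by side after their values were seen. The terminal component C5 (Hc), on the acute phase list, was tested and not called higher. The member called lower was Mup3, a major urinary protein gene of a family whose near-identical copies can share a probe set. It read 4682, 4016 and 3909.6 in vehicle and 2775, 2772 and 3263 in testosterone mice (-0.52 ± 0.14, limma adjusted p = 0.0411). Its call was lost under median centring, without any single mouse and without either pair, and Gna14 was not called (0.01).

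Genes typical of female liver were among the largest decreases. Of 37 tested members of the female-biased list, limma called 30 lower and 0 higher and left 7 uncalled. Among all genes tested, 3.26% were called lower and 2.74% higher. The list's median difference was -1.92. Without the filter on low signals, 27 of 39 members were called lower. At an unadjusted p under 0.05, 1 of the 37 was higher and 32 were lower. Without the pancreatic pair 24 were lower, and without the muscle pair 31.

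**Figure D2:**
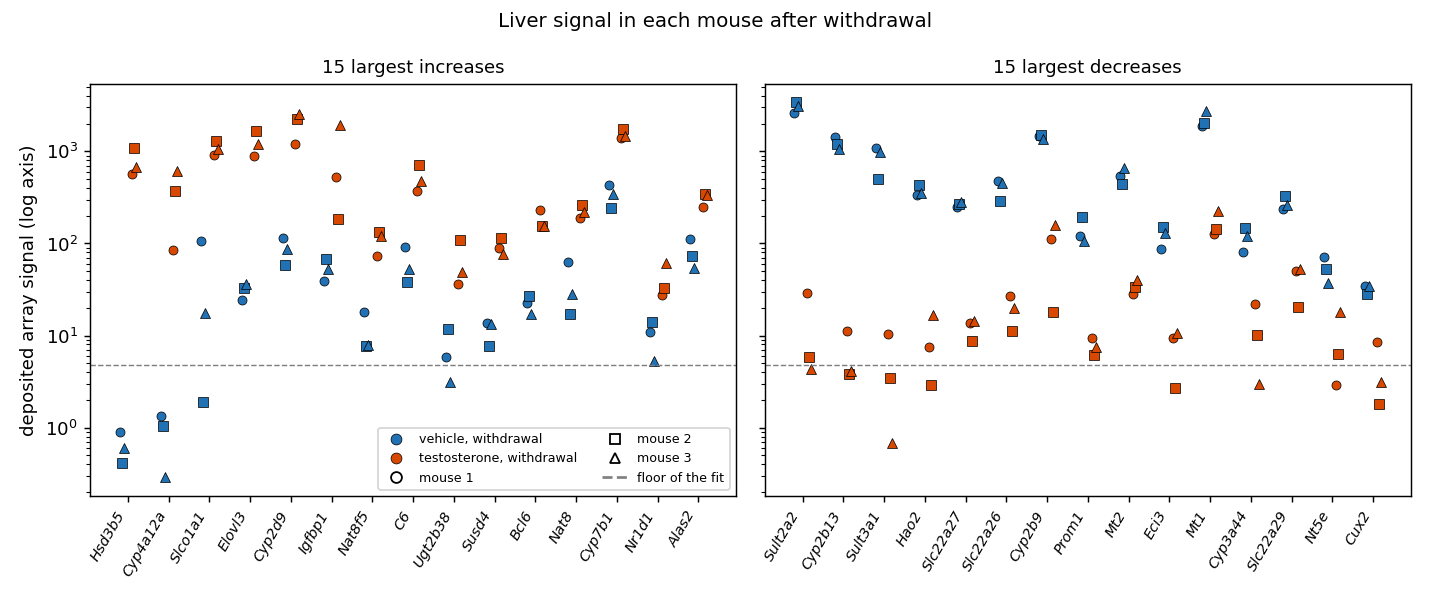
Deposited signal (log axis) of the 15 largest increases and 15 largest decreases after withdrawal, by mouse. Blue is vehicle, orange is testosterone, the marker shape gives the mouse and the dashed line is the floor of 4.84. For Hsd3b5 and Cyp4a12a all vehicle mice lie under the floor, and for Cyp2b13 and Sult3a1 testosterone mice 2 and 3 do.

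The sulfotransferase Sult2a2 fell furthest. It read 2639, 3402 and 3134 in vehicle mice and 29.1, 5.85 and 4.31 in testosterone mice, a decrease by 8.34 ± 0.46 on the log2 scale (-8.34, limma adjusted p = 2.11e-08). The cytochrome P450 gene Cyp2b13 read 1436, 1207 and 1071 against 11.1, 3.85 and 4.17, at least 192-fold lower. Sult3a1, another sulfotransferase, read 1097, 496 and 994 against 10.5, 3.49 and 0.682, at least 130-fold lower. In all 3 genes testosterone mouse 1 kept the highest remaining signal.

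Cyp2b9, a close relative of Cyp2b13, read 1458, 1519.9 and 1363 in vehicle mice and 111, 17.8 and 158 in testosterone mice. It was 21.3-fold lower, and the treated mice differed among themselves far more than the vehicle mice. The organic anion transporter genes Slc22a26 and Slc22a27 were 21.9-fold and 22.1-fold lower, and Slc22a29 7.24-fold lower. These transporters, the Cyp2b genes and the Hsd3b genes are families of similar sequence, whose probe sets could in part read each other's transcripts. The peroxisomal enzymes Hao2 (-5.47 ± 0.35) and Eci3 (at least 15.3-fold), the membrane protein gene Prom1 (17.8-fold) and the cytochrome Cyp3a44 (-3.46 ± 0.41) followed.

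Moderate decreases were those of the iron hormone relative Hamp2 (4.24-fold, from 4187 ± 336 to 1006 ± 248), the steroid 17-hydroxylase Cyp17a1 (3.84-fold) and the fatty acid transporter Cd36 (2.46-fold). The smallest called differences of the list were those of Sult1a1, at -0.48 ± 0.07, and the flavin oxygenase Fmo1, at -0.50 ± 0.10. The 7 members not called were Cyp3a16 (-2.68), Defb1 (-1.22), Vnn1 (-0.31), Cyp7a1 (-0.27), Cyp39a1 (0.12), Cyp4a14 (0.14) and Ephx1 (0.30). For Cyp3a16 the vehicle mice themselves ran from 3.89 to 114.

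Outside the sex-biased lists, the metallothioneins Mt1 and Mt2, small metal-binding proteins, were among the largest decreases. Mt1 read 1871, 2042 and 2773 in vehicle mice and 127, 145 and 224 in testosterone mice (13.7-fold), and Mt2 read 541, 437 and 661 against 28.5, 33.6 and 39.7 (-4.00 ± 0.47). No mouse of either group lay between. Vldlr, a lipoprotein receptor, was 4.89-fold lower, and Nt5e, the ecto-nucleotidase CD73, read 70.9, 53.3 and 37.0 against 2.89, 6.38 and 18.2 (-2.65 ± 0.40).

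Growth hormone signalling was read over 19 tested genes, of which 2 were higher and 3 lower, with a median of -0.13. The shares among all genes were 2.74% higher and 3.26% lower. The receptor Ghr (0.20 ± 0.09), Stat5b (-0.26 ± 0.17), the feedback inhibitor Socs2 (-0.52 ± 0.25) and the circulating growth factor Igf1 (0.06 ± 0.08) did not pass the test, and Igf1 read 1991 to 2413 in vehicle and 2240.2 to 2339.6 in testosterone mice. The 2 repressors moved in opposite directions. Bcl6 read 22.6, 27.1 and 17.0 in vehicle mice and 229, 155 and 153 in testosterone mice, an 8.04-fold increase (3.01 ± 0.25, limma adjusted p = 1.49e-06). Its second probe set also rose, by 2.36. Cux2 read 34.7, 28.0 and 34.9 in vehicle mice and 8.54, 1.83 and 3.15 in testosterone mice, at least 5.53-fold lower. Bcl6 is also on the male-biased list and Cux2 on the female-biased one.

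Cish, an inhibitor that STAT5 induces, read 115, 71.1 and 116 in vehicle mice and 39.1, 29.4 and 30.5 in testosterone mice, 3.01-fold lower with no overlap. The binding protein Igfbp3 was 2.31-fold lower. Igfbp1, a binding protein that insulin suppresses, was higher in all 3 testosterone mice but unevenly so, at 526, 186 and 1915 against 39.0, 68.2 and 53.0 (3.46 ± 0.59, limma adjusted p = 0.00224).

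Promoter sequences are shown for Cish and Bcl6, the pair of STAT5-responsive genes that moved in opposite directions, for Hsd3b5, the largest increase, and for Sult3a1, the largest decrease whose window held the motif described here. Cish and Bcl6 were picked after their values were seen. The sequences are RefSeq's, from build GRCm38.p6, and run 5′ to 3′ on the gene's strand from 250 bases before the annotated start to 50 after it. Capitals mark each match to TTCNNNGAA, the core of a STAT binding element, which reads the same on both strands. Positions count from 1 at the annotated start. The Cish window is chr9:107296409-107296708, plus strand, with 2 matches starting at positions 1 and 12, and the second of the 2 Bcl6 windows is chr16:23981234-23981533, minus strand, with 3 matches at -168, -122 and -88. The Sult3a1 window is chr10:33857472-33857771, plus strand, with 1 match at -109, and the Hsd3b5 window is chr3:98645485-98645784, minus strand, with 0 matches.
Cish: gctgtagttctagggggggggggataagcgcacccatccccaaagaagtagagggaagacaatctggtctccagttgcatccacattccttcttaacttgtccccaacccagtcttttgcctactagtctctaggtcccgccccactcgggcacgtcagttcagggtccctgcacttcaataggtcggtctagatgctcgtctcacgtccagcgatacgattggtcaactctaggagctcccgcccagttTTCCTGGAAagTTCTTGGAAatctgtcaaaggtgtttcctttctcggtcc
Bcl6: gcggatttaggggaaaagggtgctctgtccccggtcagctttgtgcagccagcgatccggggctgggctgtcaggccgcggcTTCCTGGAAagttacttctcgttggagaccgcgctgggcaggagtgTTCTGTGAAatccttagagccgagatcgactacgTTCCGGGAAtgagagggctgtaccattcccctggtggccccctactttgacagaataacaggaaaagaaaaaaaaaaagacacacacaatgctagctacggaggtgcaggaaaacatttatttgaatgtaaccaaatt
Sult3a1: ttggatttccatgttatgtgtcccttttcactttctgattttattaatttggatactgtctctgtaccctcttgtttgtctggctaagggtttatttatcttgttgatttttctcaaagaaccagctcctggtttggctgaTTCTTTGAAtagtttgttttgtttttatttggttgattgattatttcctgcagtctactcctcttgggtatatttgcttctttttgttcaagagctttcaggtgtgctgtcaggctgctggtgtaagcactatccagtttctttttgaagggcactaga
Hsd3b5: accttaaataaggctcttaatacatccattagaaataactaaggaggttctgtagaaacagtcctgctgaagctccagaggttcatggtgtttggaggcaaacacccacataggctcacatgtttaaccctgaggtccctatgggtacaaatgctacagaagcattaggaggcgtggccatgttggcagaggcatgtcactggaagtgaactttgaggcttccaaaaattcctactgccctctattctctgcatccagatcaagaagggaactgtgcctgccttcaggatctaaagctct

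The other Bcl6 window, chr16:23988803-23989102, minus strand,, held 1 match at -118, and the windows of Slco1a1 and Cyp2b13 held 0. Across all windows of the table, 2726 of 32851 (8.3%) held a match and 150 (0.457%) held at least 2. Among the 7693 windows of tested genes the share was 6.5%, 25 windows held at least 2 matches, and 1, that of Bcl6, held at least 3. For genes called higher, 16 of 224 windows (7.14%) held a match, and for genes called lower 17 of 249 (6.83%). The shares of called genes thus lay near the share of all tested genes, and a match is a string of letters, not a measured binding site.

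**Figure D3:**
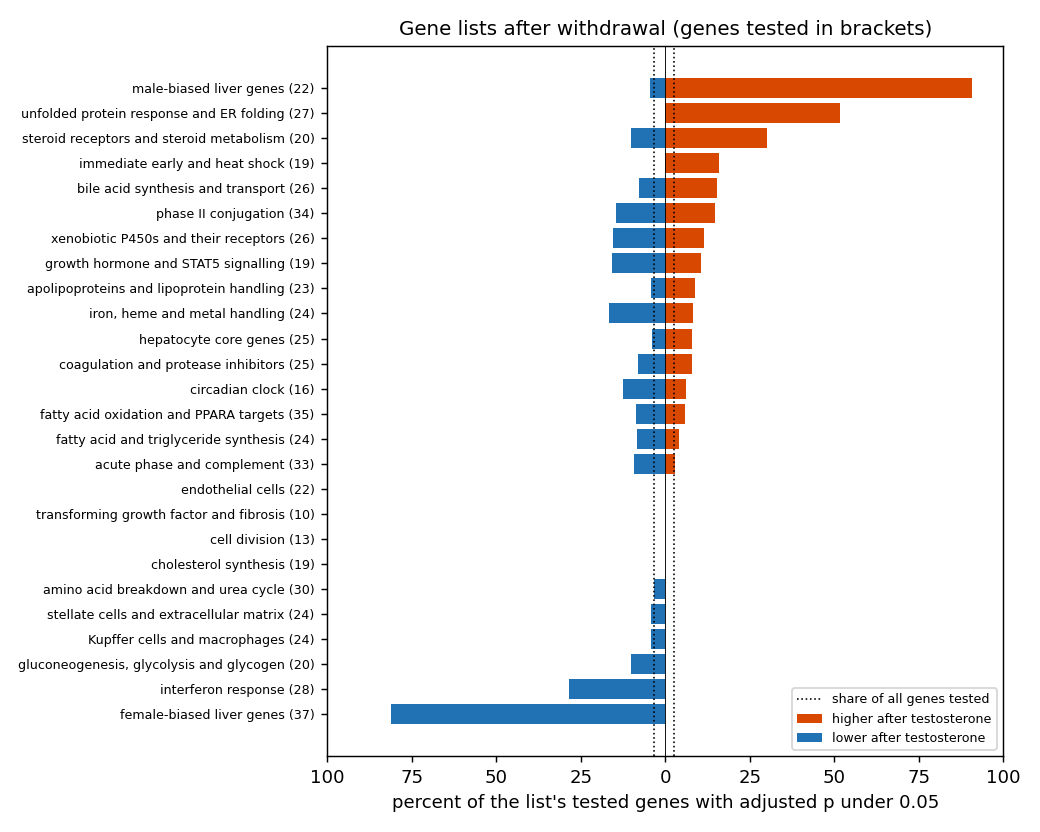
Share of each gene list called higher (orange, to the right) or lower (blue, to the left) after withdrawal, for lists with at least 10 genes tested, which are numbered in brackets. Dotted lines give the shares among all genes tested, 2.74% higher and 3.26% lower. The longest bars are those of the male-biased list (20 of 22 higher) and the female-biased list (30 of 37 lower).

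The unfolded protein response refolds or removes proteins in the endoplasmic reticulum. Of its 27 genes tested, 14 were called higher and 0 lower by limma, beside 2.74% higher and 3.26% lower among all genes. The list's median was 0.44 against -0.04 for all genes, and at an unadjusted p under 0.05 its counts were 18 and 0. The chaperone Hspa5 (BiP) read 1461, 1467 and 1531 in vehicle mice and 2994, 2753 and 3198 in testosterone mice, 2.00-fold higher (1.00 ± 0.08, limma adjusted p = 1.17e-06). The secreted survival factor Manf rose 2.87-fold, the degradation factor Herpud1 2.96-fold, Creld2 3.77-fold and the chaperone partner Sdf2l1 3.19-fold. The co-chaperone Dnajb9 and the ubiquitin ligase Syvn1 rose 2.05-fold and 2.14-fold. The stress transcription factors themselves did not pass the test, with Xbp1 at 0.26 ± 0.09, Atf4 at -0.13 ± 0.11 and Ddit3 at 0.43 ± 0.15.

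Exocrine pancreas cells are rich in such transcripts, and testosterone mouse 3, whose exocrine sum lay in the range of the vehicle mice, is therefore given apart. Of the 6 livers it held the highest Hspa5 and Herpud1 (545, 544 and 536 in vehicle mice, then 1474, 1450.3 and 1927), while Manf (1587, 1378 and 1577 in testosterone mice) was highest in mouse 1 and Sdf2l1 (119, 108 and 93.9) was lowest in mouse 3 among treated mice. The list's summed signal was 21999, 19872 and 20691 in testosterone mice and 13791 to 14366 in vehicle mice. With mouse 3 as the lone treated mouse, 8 of 27 were called higher and the median was 0.36. Without the muscle pair 12 were called. The count was 10 without vehicle mouse 2 and 11 without testosterone mouse 2.

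Some interferon response genes were lower. Of 28 tested, 8 were called lower and 0 higher by limma, with a median of -0.60, beside 3.26% lower and 2.74% higher among all genes. At an unadjusted p under 0.05 the counts of the list were 22 and 0, where 1485 of all 7217 genes passed in either direction. The GTPase Igtp read 482, 341 and 467 in vehicle and 190.0, 102 and 167 in testosterone mice (2.88-fold), the guanylate-binding proteins Gbp6 and Gbp2 were 2.31-fold and 2.00-fold lower, and Ifit1 and the ISG15 protease Usp18 were 2.16-fold and 2.09-fold lower. The remaining called genes were Rtp4 (-0.69), Irf9 (-0.62) and the immunoproteasome subunit Psmb8 (-0.60). With testosterone mouse 3 as the lone treated mouse the count was 3, and it was 8 without the muscle pair. Dropping vehicle mouse 1 or 3 left 4 or 5, dropping testosterone mouse 2 or 3 left 4 or 5, and dropping testosterone mouse 1 gave 12.

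Markers of immune cells were read beside this list. Of 16 genes each, 5 to 7 B cell genes and 1 to 2 T and NK cell genes lay above the array median, so most of these signals were low. The summed signal of 16 B cell and plasma cell genes was 936 to 1613 in vehicle and 686 to 819 in testosterone mice, and that of 16 T and NK cell genes 218 to 272 and 163 to 205. Among 6 tested B cell genes the immunoglobulin heavy chain Ighm was called lower (104, 116 and 278 against 80.5, 56.1 and 46.7). The sums of 26 macrophage genes overlapped, at 3168 to 5593 and 3575 to 4120, and 1 of 24 tested, the endotoxin co-receptor Cd14, was called lower (-0.75 ± 0.21, limma adjusted p = 0.0454). That call was lost under median centring, quantile normalization and the replicate block, and without any single mouse other than testosterone mouse 1, with adjusted p between 0.0185 and 0.17 over the alternatives. The part of these cells in the interferon difference was not tested.

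Steroid enzyme genes moved in both directions, with 6 of 20 higher and 2 lower. Of all genes tested, 2.74% were called higher and 3.26% lower. Next to Hsd3b5, its relatives Hsd3b2 (1.52 ± 0.25) and Hsd3b3 (1.40 ± 0.19) were higher, and the corticosteroid-binding globulin Serpina6 was 1.66-fold lower, from 2046 ± 248 to 1229 ± 103. In bile acid synthesis, the 12-hydroxylase Cyp8b1 was 1.89-fold higher and the rate-limiting Cyp7a1 did not pass the test (1513, 1879 and 1468 against 1054, 1464 and 1535). In total 4 of 26 genes of that list were higher and 2 lower. Among 26 xenobiotic P450s and receptors, 3 were higher and 4 lower, with Cyp2b10 5.06-fold lower (361, 366 and 246 against 83.8, 35.0 and 86.0), while its receptor Nr1i3 (CAR) did not pass the test at -0.53 ± 0.17. Phase II enzymes counted 5 of 34 higher and 5 lower.

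Few lipid synthesis genes passed the test. The counts in this paragraph stand beside 2.74% of all genes called higher and 3.26% called lower, and several lie near those shares. Cholesterol synthesis had 0 of 19 called by limma (median -0.12), with 1 lower at an unadjusted p under 0.05, and fatty acid synthesis had Elovl3 higher and Pklr (-0.64) and the lipase-like Pnpla3 (27.2, 23.4 and 17.6 against 8.30, 3.95 and 9.02) lower among 24. At an unadjusted p under 0.05, 8 of these 24 were lower and 1 was higher, with a median of -0.27, and with testosterone mouse 3 as the lone treated mouse 0 were called lower. Fatty acid oxidation had 2 of 35 higher and 3 lower, with the thioesterase Acot3 3.82-fold lower and the lipid droplet coat protein Plin2 1.37-fold higher. Gluconeogenesis and glycolysis had 0 of 20 higher and 2 lower (0 lower with testosterone mouse 3 alone), and amino acid breakdown 0 of 30 higher and 1 lower. By limma 0 of 22 endothelial genes, 0 of 13 cell division genes and 0 of 10 fibrosis genes were called, and at an unadjusted p under 0.05 the counts were 1, 1 and 4, all lower. At that unadjusted threshold 1485 of all 7217 genes passed, in either direction.

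The same contrast at the end of treatment allows each difference to be set beside its earlier value, in other mice. At that time 1258 genes (17.4%) were called. Of the 433 genes called after withdrawal, 220 (50.8%) had been called in the same direction at the end, 105 higher and 115 lower, which is 17.5% of the end calls. A further 9 had been called in the opposite direction and 204 had not been called, of which 140 had the same sign. Among the 185 genes that differed at least 2-fold at the end, 88 (47.6%) were called in the same direction after withdrawal and 95 were not called. The 220 became 122 with testosterone mouse 3 as the lone treated mouse after withdrawal, 204 without the muscle pair, and 53 once the actin ratio was a covariate.

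Most tested members of the sex-biased lists were called at each time. The male-biased list had a median of 1.59 at the end and 2.11 after withdrawal. It had 18 members called higher and 1 lower at the end, and 20 higher and 1 lower after withdrawal. The female-biased list had medians of -1.97 and -1.92. At each time 30 members were called lower, though not the same 30 throughout. Another 2 were called higher at the end and 0 after withdrawal. Cyp7a1 was called lower at the end (-1.53) and not called after withdrawal (-0.27). The change between the times was called for 3 of 22 male-biased genes (Elovl3, from 3.00 to 5.31, Bcl6 and Susd4) and 4 of 37 female-biased genes (Hao2, from -3.16 to -5.47, Cyp17a1, Cyp7a1 and Abcd2), and it was not tested for the lists as a whole. Sult2a2 differed by -8.65 at the end and -8.34 after withdrawal, Cyp2b13 by -7.83 and -7.59, Cyp2d9 by 4.20 and 4.52, and Cux2 by -2.59 and -2.47. For Sult2a2, Cyp2b13, Cyp2d9 and Cux2 the change between the times did not pass the test (limma adjusted p from 0.742 to 0.905), which does not show that it was 0. The unfolded protein response list had 16 called higher at the end and 14 after withdrawal, with Creld2 at 1.96 and 1.92. The change between the times was called for 2 of its 27 genes. For Herpud1, 1 of these 2, the difference was -0.23 at the end and 1.56 after withdrawal. Its vehicle mean was 1154 at the end and 542 after withdrawal, and its testosterone mean 995 and 1617.

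**Figure D4:**
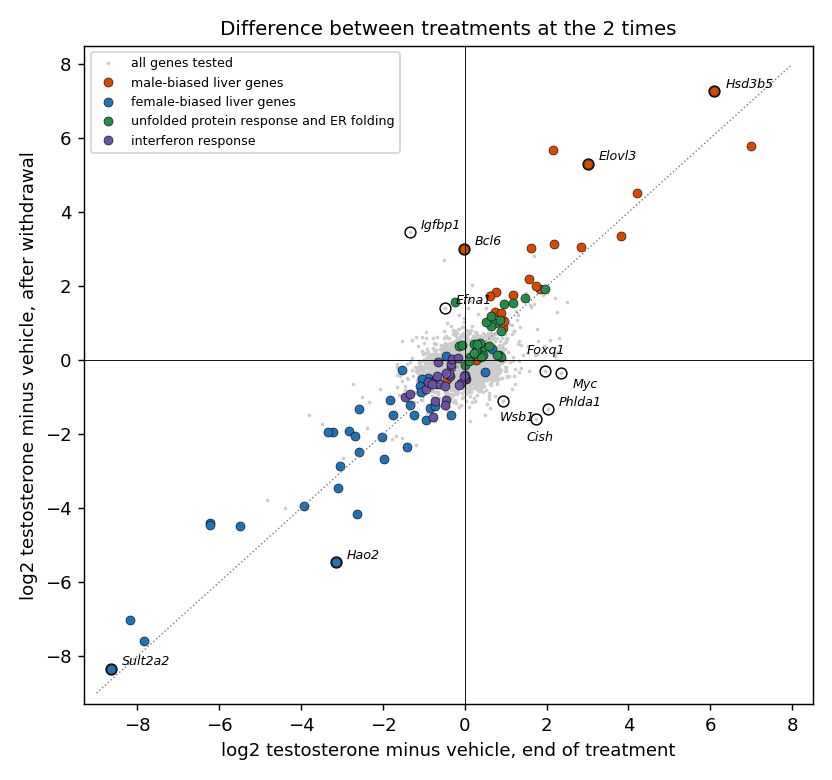
Log2 difference (testosterone minus vehicle) at the end of treatment (horizontal) against that after withdrawal (vertical) for 7217 genes, with 4 gene lists in colour. The dotted line marks equal differences. Sult2a2 (-8.65, -8.34) lies near it, while Bcl6 (-0.01, 3.01), Igfbp1 (-1.34, 3.46) and Cish (1.73, -1.59) lie off it.

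Several lists had more members called lower at the end than after withdrawal. Among all genes, 17.4% were called in either direction at the end and 6.00% after withdrawal. Cholesterol synthesis had 12 of 19 lower at the end and 0 after withdrawal, and amino acid breakdown 9 of 30 and 1. Macrophage genes had 10 of 24 lower at the end and 1 after withdrawal, and the acute phase and complement list 12 of 33 and 3. The difference between the times was called for 2 of 19 cholesterol synthesis and 0 of 30 amino acid breakdown genes. For macrophage genes the count was 0 of 24, and for acute phase and complement genes 1 of 33. That difference was not tested for these lists as a whole.

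The difference itself was called for 158 genes (2.19%), 42 of which were also called after withdrawal. This count moved with single mice. Dropping vehicle mouse 1, 2 or 3 of the later time gave 300, 46 or 26 genes, and dropping testosterone mouse 1, 2 or 3 gave 542, 38 or 51. The count was 677 without the muscle pair, 227 without the pancreatic pair and 1 once the actin ratio was a covariate. The actin ratio of the testosterone mice was 2.03 to 2.19 when treatment ended, and it ran from 1.44 to 1.89 in the other 3 groups, so the ratio and treatment at the end cannot be told apart.

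Among the 9 genes called both times but with opposite signs, Phlda1, a growth-regulating pleckstrin-like gene, had the largest change. It read 243, 189.5 and 223 in vehicle and 977, 829.5 and 868 in testosterone mice at the end, then 598, 381 and 605 and 229, 215 and 179 after withdrawal. The change in its log2 difference was -3.36 (limma adjusted p = 2.16e-06). Cish turned in the same direction. Vehicle mice read 44.5, 46.9 and 29.6 and testosterone mice 118, 128 and 150.3 at the end, so its difference went from 1.73 to -1.59. Efna1, an ephrin ligand, turned in the other direction, from -0.48 to 1.42.

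Bcl6 was not separated by treatment at the end. Vehicle mice read 48.9, 59.7 and 62.2 and testosterone mice 76.5, 36.3 and 63.4, and the withdrawal values lay below that range in vehicle mice and above it in testosterone mice. For several of these genes the vehicle group itself stood elsewhere at the later time. Hao2 read 29.0, 48.3 and 59.9 in vehicle mice at the end and 339.9, 431 and 354 after withdrawal, and the corresponding vehicle means of Cish and Phlda1 were also higher at the later time. Age, time and array processing cannot be told apart between the 2 times. The 9 genes called in opposite directions also included Wsb1 (0.95, then -1.11), the liver transcription factor Foxa2 (0.58, then -0.89), Gdap10, Stim1, Gjb1 and Cope.

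**Figure D5:**
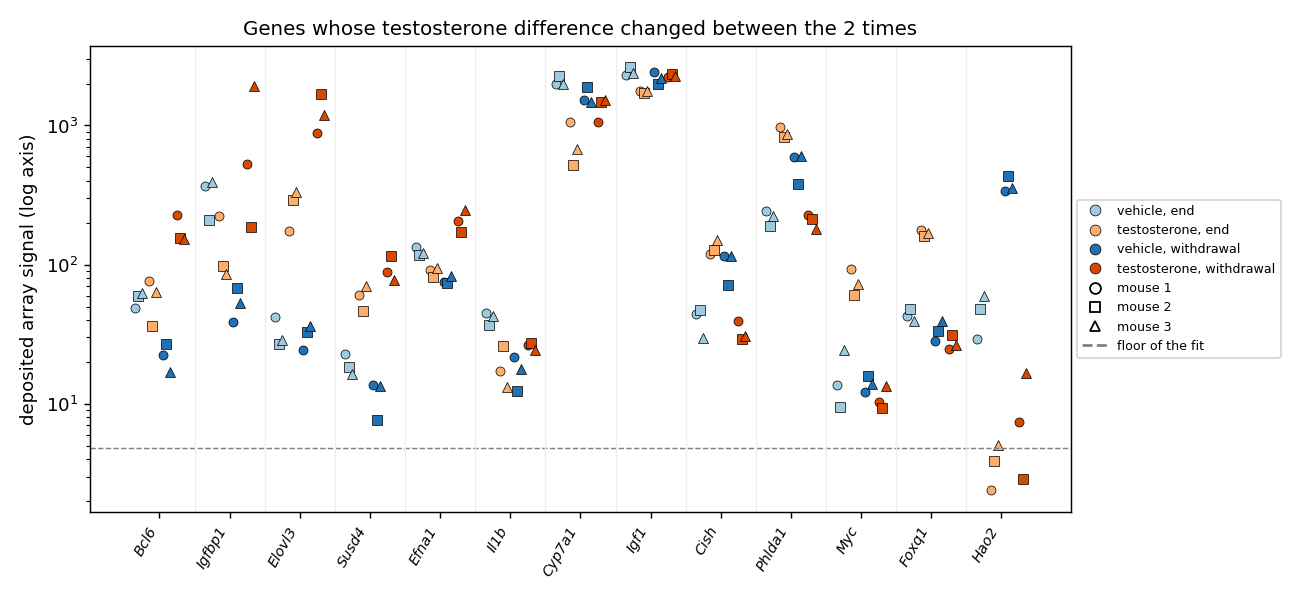
Deposited signal (log axis) in all 12 mice for 13 of the 158 genes whose testosterone difference changed between the times by the limma interaction. Pale markers are the end of treatment and dark markers the time after withdrawal, blue for vehicle and orange for testosterone. Bcl6, Igfbp1 and Efna1 are higher in testosterone than in vehicle mice after withdrawal, whereas Cish and Phlda1 are higher in testosterone mice at the end and lower after withdrawal.

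The single listed exocrine gene that passed the test was Cela1, an elastase that was measured in all 12 livers. It read 159.6, 96.7 and 91.1 in vehicle mice and 446, 509 and 282 in testosterone mice, a 3.57-fold increase (1.84 ± 0.22, limma adjusted p = 8.18e-05). With testosterone mouse 3 as the lone treated mouse the difference was 1.33 (limma adjusted p = 0.0182), and at the end of treatment, without a raised exocrine sum, it was 0.73 (limma adjusted p = 0.0329). Cela2a, the other tested exocrine gene, read 103, 244 and 10.8 in testosterone mice and 6.94 to 12.7 in vehicle mice, and was not called. The remaining 28 lay too low on most arrays to enter the test, so their values per mouse stand as given above.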

How the data were processed

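Liver RNA of 12 mice was measured on 1 single-channel oligonucleotide array each. The intensity values used are the signals the authors deposited, scaled to a common trimmed mean, made with GCOS and MAS5 per the submitters' processing notes, with no version given. Of 22690 probe sets, 64 controls were left out, and 20380 of the rest carry 1 gene symbol, of which 20351 matched RefSeq and 0 needed updating. Signals were floored at 4.84, the 25th percentile, and taken to log2, and the brightest probe set, by mean log2, stood for each of 12393 genes. The 7217 genes above the median of their array on at least 3 arrays were tested.

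Differences were fitted with limma 3.58.1 (R 4.3.3) on all 12 arrays with a mean per group, a variance trend and Benjamini-Hochberg adjustment, and the change between times is the interaction. Depth does not apply to arrays, and 3 mice per group limit the precision. Printed means and SDs are of deposited signals. Folds are of floored geometric means. They are given as bounds where a group reached the floor, and a bound was left out where the plain means gave less. Other folds can exceed the ratio of the plain means, as for Cyp2b9, 21.3-fold lower with plain means of 1446.8 and 95.6. On simulated data of 7217 genes, 163 of 200 changed genes were called, with 4 others. The noise there was normal and independent between genes, and the changes had preset sizes. These counts therefore do not give the rates of missed or false calls for the real arrays.

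Over the 7217 genes tested, mice with the same number in the 2 withdrawal groups did not deviate together (correlations -0.081, -0.062 and -0.02). The numbers were therefore not taken to pair them. The 2 livers with muscle signal do share the number 1, which these correlations could hardly show, because 1 of the 15 listed muscle genes was tested. The comparison and the gene lists were chosen with earlier results of these data known. Named are the 15 largest increases and decreases without overlap between groups, up to 5 called genes per list, genes fixed by name, all pancreatic genes, and the largest changes by time. Further list members, the terminal complement components, the genes of opposite direction and those shown for their promoters were added after their values were seen. Alternatives were the floor, scaling, filter, probe set choice, model, a replicate block, the actin ratio and leaving out mice.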

Additional observations from a re-analysis of the deposited data

Results flagged for a closer look

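Of the 158 genes whose difference between testosterone and vehicle mice was itself different at the 2 times, 23 are listed here. Abcd2, named above, was also among the 158. The values are the interaction term of the limma fit (after withdrawal minus end of treatment, on the log2 scale, 3 mice per group). It was positive for Igfbp1 at 4.80 (adjusted p = 0.0116), Bcl6 at 3.02 (adjusted p = 0.000477), Elovl3 at 2.30 (adjusted p = 0.00875), Efna1 at 1.89 (adjusted p = 9.52e-05), Il1b at 1.83 (adjusted p = 0.0206), Herpud1 at 1.79 (adjusted p = 0.000105) and Susd4 at 1.42 (adjusted p = 0.0464). Smaller positive values were those of Cmah at 1.33, Cyp17a1 at 1.29, Cyp7a1 at 1.26, Cope at 0.74, Gjb1 at 0.69 and Igf1 at 0.53, with adjusted p from 0.0116 to 0.0362.

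The interaction was negative for Phlda1 at -3.36 (adjusted p = 2.16e-06), Cish at -3.32 (adjusted p = 4.81e-05), Myc at -2.70 (adjusted p = 0.0088), Hao2 at -2.31 (adjusted p = 0.0322), Foxq1 at -2.24 (adjusted p = 7.09e-05) and Wsb1 at -2.05 (adjusted p = 0.0116). Foxa2 at -1.47, Gdap10 at -1.32, Raly at -1.30 and Stim1 at -1.26 had adjusted p from 0.00107 to 0.0176. Of these, Foxq1 (1.96) and Myc (2.34) were higher at the end and not called after withdrawal (-0.28 and -0.36).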

How the results depend on the processing

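Most counts below moved by over 1.5 times under the settings named, and the cause was not tested beyond what each setting removes. Those that moved less were the sex-biased counts and the replicate block counts after withdrawal. The count called in the same direction at both times also moved less without a single mouse. Genes called higher after withdrawal (198) were 118 with the actin ratio as a covariate, 57 at 2-fold or more, 112 without the pancreatic pair and 110 to 274 without a single mouse. Genes called lower (235) were 151 with no filter on low signals, 145 with the actin ratio, 67 at 2-fold or more, 138 without the pancreatic pair, 377 without the muscle pair and 126 to 360 without a single mouse. Genes called in the same direction at both times (220) were 144 with no filter, 53 with the actin ratio, 65 at 2-fold or more, 122 without the pancreatic pair and 155 to 219 without a single mouse. Genes whose difference changed between the times (158) were 37 with no filter, 554 over every probe set, 72 without a variance trend, 55 with a replicate block, 1 with the actin ratio, 70 at 2-fold or more, 677 without the muscle pair and 26 to 542 without a single mouse. Leaving out a single mouse gave 20 male-biased genes higher each time and 28 to 31 female-biased genes lower. With the replicate block, 158 genes were higher and 197 lower after withdrawal. Of 96 named genes called, 49 stayed called under every setting run and 0 changed direction. Leaving out the pancreatic pair rests on 1 treated mouse, assumed to vary like the other groups.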

Other observations

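For 3 immediate early and clock genes, singled out after their values were seen, testosterone mouse 3 was highest of the 6 livers. Dusp1, a phosphatase induced by stress and growth signals, read 127, 112 and 229 in vehicle and 275, 379 and 875 in testosterone mice, and the RNA-destabilising Zfp36 read 108, 105 and 115 against 162, 169.6 and 413. The clock repressor Nr1d1 read 5.26 to 13.9 in vehicle mice against 27.5, 32.9 and 61.0, while Bhlhe40 was lower at 65.6, 109 and 146 against 226, 244 and 195. Usp2, whose level follows the time of day in liver, read 211 to 255 in vehicle mice when treatment ended and 26.9 to 32.9 after withdrawal. Tfrc, the transferrin receptor, rose 1.79-fold and the iron exporter Slc40a1 fell 1.43-fold.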
